A study of Mus musculus with 9 samples.

Results

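Among the 20635 gene symbols of the deposited table, 720 are annotated as long intergenic noncoding RNAs (lincRNAs), and 110 of these were selected on their measured level, 3 CPM (read counts scaled to library size) or more in at least 3 of the 9 libraries. Meg3 and H19 were left out by name, and the other 608 lincRNA symbols stayed below that level. The choice used levels, in which the populations enter together. 5330426P16Rik passed through the Syndecan-2+ libraries alone and had to differ. Gm20467, Gm15706, Gm17586, Gm26510 and Gm26694 reached 3 CPM in no Syndecan-2- library. 4833445I07Rik, D730003I15Rik, Gm10603, Gm26792 and Gm26852 reached it in no Syndecan-2+ library and Gm26951 in no Parent library. Their place among the 110 rests on the populations where they were high, and their tests are not independent of the choice. The last lincRNAs inside the limit were Gm17586, Gm26510 and Gm26792, where the lowest of the 3 highest libraries was at 3.02, 3.01 and 3.01 CPM. The first outside were 4833407H14Rik, Gm26624 and Fam120aos, at 2.98, 2.98 and 2.96 CPM.

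The cells were bone marrow cells from the femurs and tibias of C57BL/6J mice aged 10 weeks, with no treatment named, sorted in the gate that mouse hematopoietic stem cells occupy: KSL CD34-, that is cells with c-Kit and Sca-1 on their surface but no lineage markers and no CD34. Parent is the whole gate, and Syndecan-2- and Syndecan-2+ are the cells of that gate without and with the cell-surface proteoglycan Syndecan-2, each with 3 libraries of 10000 sorted cells, so the Parent libraries hold cells of both kinds. The labels name male mice in 1 place and both sexes in another. Xist, the lincRNA that silences an X chromosome in female cells, was listed at 0.118 to 0.634 CPM across the 9 libraries, and sex was not tested. The labels do not say whether the 3 libraries of a population come from separate animals. The p-values therefore reflect the variation among these libraries, part or all of which may be technical. Because whole populations were sequenced, fewer cells with an RNA and less RNA per cell cannot be told apart.

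LincRNAs are transcripts longer than small RNAs that do not code for a known protein and lie between coding genes. Some stay in the nucleus and form or sit in nuclear bodies, some are spliced to release small nucleolar RNAs (snoRNAs) or microRNAs (miRNAs) from their introns or exons, and some start beside a coding gene and are transcribed away from it. In blood stem cells, Meg3 and H19 are well studied examples, and the miR-17-92 cluster, which is cut from the transcript of Mir17hg, is known for its role in the growth of blood cell precursors.

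Several sets of sequences are shown for lincRNAs whose levels differ between the sorted fractions. The first are the mature miRNAs whose hairpins lie inside Mir17hg and 4833445I07Rik, both lincRNAs lower in Syndecan-2+ cells. They are taken from RefSeq (GRCm38.p6), with the seed (bases 2 to 8, the part that pairs with targets) in capitals.
miR-17-5p: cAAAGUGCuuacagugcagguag
miR-20a-5p: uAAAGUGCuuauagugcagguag
miR-18a-5p: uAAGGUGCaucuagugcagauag
miR-19a-3p: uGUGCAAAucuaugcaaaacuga
miR-19b-3p: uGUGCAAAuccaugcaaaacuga
miR-92a-3p: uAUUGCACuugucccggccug
miR-191-5p: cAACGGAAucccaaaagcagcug
miR-425-5p: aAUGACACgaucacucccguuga
Of the 6 from Mir17hg, miR-17-5p and miR-20a-5p share 1 seed and miR-19a-3p and miR-19b-3p share another, and the rest have a seed of their own. The hairpins of miR-191 and miR-425 lie inside 4833445I07Rik on its strand (chr9:108567533-108569174). The table lists no value for the miRNA genes themselves, so what is measured is the host transcript.

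The other set is the promoter windows, 250 bases before to 50 bases after the RefSeq start, of a lincRNA that rose beside its coding neighbour (Gm20467), of the lincRNA that reached 3 CPM in Syndecan-2+ cells alone (5330426P16Rik, RefSeq Dubr) and of a lincRNA that fell (5830416P10Rik, RefSeq Mirt1). Capitals mark matches, on either strand, to the motif of GATA factors (letters GATAA), of ETS factors (GGAAGT) and of RUNX factors (TGTGGT), to the E-box (CACGTG), the GC box (GGGCGG) and the TATA box (TATAAA), and to the box named CCAAT after its letters.
Gm20467, chr19:43612007-43612306 (GRCm38.p6), minus strand: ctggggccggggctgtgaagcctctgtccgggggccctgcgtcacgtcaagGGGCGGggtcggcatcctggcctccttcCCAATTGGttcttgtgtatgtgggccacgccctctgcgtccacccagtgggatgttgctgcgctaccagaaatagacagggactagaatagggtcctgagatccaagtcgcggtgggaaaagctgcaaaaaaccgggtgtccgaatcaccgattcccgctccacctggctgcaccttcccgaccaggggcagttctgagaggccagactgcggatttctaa
5330426P16Rik, chr16:50732724-50733023 (GRCm38.p6), minus strand: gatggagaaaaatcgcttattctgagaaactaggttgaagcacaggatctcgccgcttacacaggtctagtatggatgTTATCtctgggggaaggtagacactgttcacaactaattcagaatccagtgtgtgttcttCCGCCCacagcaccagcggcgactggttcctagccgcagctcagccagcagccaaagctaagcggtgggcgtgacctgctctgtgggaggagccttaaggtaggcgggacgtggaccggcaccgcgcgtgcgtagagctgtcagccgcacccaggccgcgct
5830416P10Rik, chr19:53464747-53465046 (GRCm38.p6), minus strand: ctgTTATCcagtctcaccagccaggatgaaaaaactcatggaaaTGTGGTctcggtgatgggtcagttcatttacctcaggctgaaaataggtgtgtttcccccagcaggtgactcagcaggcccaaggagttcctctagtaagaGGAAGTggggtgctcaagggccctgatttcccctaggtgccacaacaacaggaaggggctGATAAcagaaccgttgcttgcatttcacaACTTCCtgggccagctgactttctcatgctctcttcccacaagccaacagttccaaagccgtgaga
The Gm20467 window holds 1 GC box and 2 overlapping CCAAT boxes on opposite strands, and 232 of its 300 bases are shared with the window of Nkx2-3 on the plus strand (chr19:43612075-43612374). RefSeq gives Gm20467 a second start as well, and both lie upstream of the transcript in the deposited table. The Dubr window holds 1 GATA and 1 GC box match, and the Mirt1 window 2 GATA, 2 ETS and 1 RUNX match. A GATA match stands in 25.4% of all 32851 windows of the RefSeq table, an ETS match in 23.8%, a RUNX match in 16.8%, a GC box in 35.7% and a CCAAT box in 37.4%. RefSeq windows were found for 46 of the 110 lincRNAs (51 windows). A GC box stands in 23 of these 51, an E-box in 8 against 7.15% of all windows, and a TATA box in 4 against 13.6% of all windows. Of the same 51, 7 hold a GATA match (13.7%), 14 an ETS match (27.5%), 6 a RUNX match (11.8%) and 19 a CCAAT box (37.3%). The lincRNA windows hold a median of 15 CpG dinucleotides, and all windows a median of 7. These matches describe letters in a window and are no measure of binding.

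Most lincRNAs were rare, and a handful carried nearly all of the signal. The mean over the 9 libraries was under 3 CPM for 13 of the 110, 3 to 10 CPM for 75, 10 to 100 CPM for 17 and 100 CPM or more for 5, with a median of 5.17 CPM. In 61 of them every library reached 3 CPM, and 98 reached it in all 3 populations, 11 in 2 and 1 in Syndecan-2+ cells alone. Judged from the spacing of low values, 1 CPM stands for 15.5 to 20.6 reads and 3 reads for 0.146 to 0.194 CPM, below which nothing could be told from counting error. Such floors cover counting error only.

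Gm26917 and Yam1 stood highest, and both lie at a ribosomal RNA locus of chromosome 17. Gm26917 (chr17:39843013-39846341) had 43621.6 to 55496.5 CPM across the 9 libraries. Yam1 (chr17:39846958-39848788) had 9211.71 to 10026 CPM and overlaps the RefSeq pseudogene Rn18s-rs5, an 18S ribosomal RNA sequence. Their part as lincRNAs rather than ribosomal RNA was not tested. Together the 110 lincRNAs held 11.1 to 13.2% of the CPM listed in a library, and 0.716 to 1.00% without these 2. Neither differed between the fractions by the test, at 0.12 ± 0.18 (log2 fold change ± SE, adjusted p = 0.664, limma) for Gm26917 and -0.01 ± 0.11 (adjusted p = 0.955) for Yam1.

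**Figure D1:**
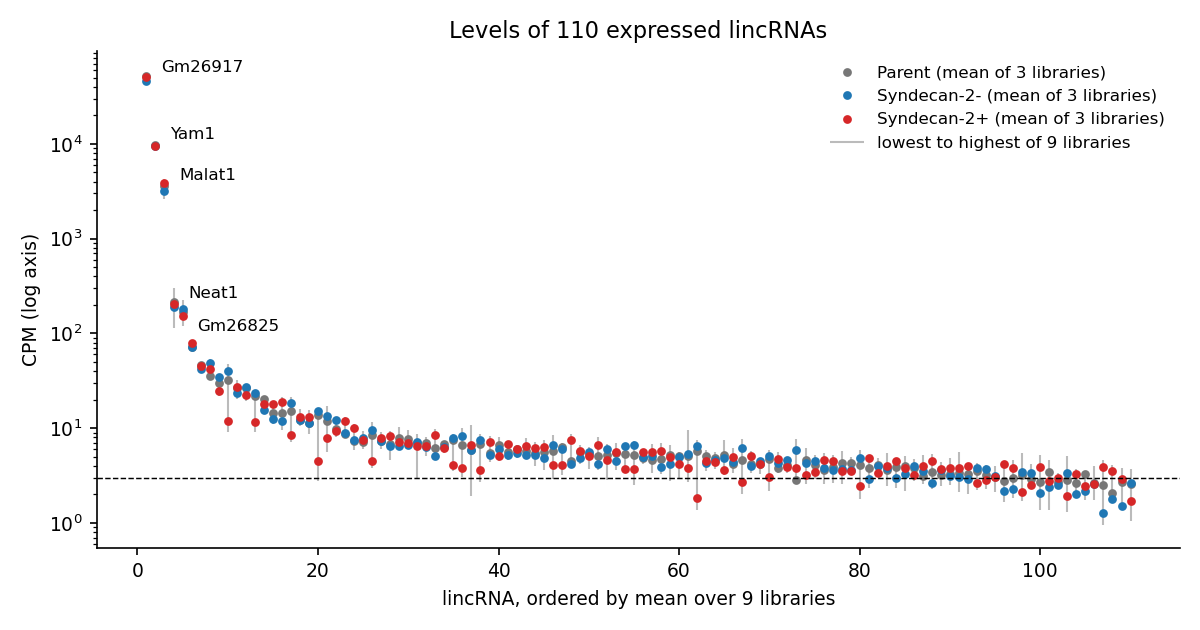
Level of each of the 110 expressed lincRNAs in CPM (log axis), ordered by its mean over 9 libraries. Points are population means of 3 libraries, grey lines run from the lowest to the highest library, and the dashed line marks 3 CPM: 5 lincRNAs lie at 100 CPM or more and 75 between 3 and 10 CPM.

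The lincRNAs of nuclear bodies came next. Malat1, which sits in nuclear speckles (chr19:5795690-5802672), had 3827, 3662 and 3205 CPM in Parent, 3579, 3434 and 2625 CPM in Syndecan-2- and 4040, 4219 and 3402 CPM in Syndecan-2+. The fractions overlapped, with a log2 fold change of 0.28 ± 0.12 (adjusted p = 0.0939, limma). With the replicate number as a block it was called higher in Syndecan-2+ (adjusted p = 0.00116). Neat1, the scaffold of paraspeckles (chr19:5824708-5845478), ran from 115 to 302 CPM, and its spread within each population was wider than any difference between them (log2 fold change 0.13 ± 0.26, adjusted p = 0.764). Its long transcript of 20771 bases and its short one of 3004 bases were listed at similar CPM, 103 ± 35.7 and 110 ± 40.8 CPM (SD, n = 3) in Parent. CPM are not divided by length, so these values do not show equal numbers of molecules of the long and the short transcript. With each transcript divided by its own length and the results summed, Malat1 stood at 487 CPM per kilobase in Parent. Gm26825 stood at 83.8, Gm28901 at 75.4 and Neat1 at 42.3, and Gm26917, at the ribosomal RNA locus, at 15769. For Malat1 this counts its long transcript, since the other has no length in GENCODE M21.

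The lincRNAs that host snoRNAs did not pass the test. Snhg6, Snhg12, Snhg20 and Epb4.1l4aos, which carry box snoRNAs in their introns, had log2 fold changes of -0.04, 0.10, 0.11 and -0.03 between Syndecan-2+ and Syndecan-2- cells (adjusted p = 0.866, 0.64, 0.643 and 0.929, limma), and none was called. Of the snoRNA genes listed inside them, Snora61 within Snhg12 was lower (-0.49, adjusted p = 0.0444), and Snora16a, Snora44, Snord99 and Snord87 had log2 fold changes from -0.29 to 0.30 and were not called, nor were Gm23639 in Epb4.1l4aos (-0.02) and Gm26083 in Snhg20 (0.62). Ftx, a lincRNA of the X-inactivation centre, had 4.51 to 8.16 CPM and -0.19 ± 0.18 (adjusted p = 0.477). Oip5os1 (1700020I14Rik, also called Cyrano) had 65.2 to 84.9 CPM and 0.16 ± 0.08 (adjusted p = 0.167). It was called higher with the replicate number as a block (adjusted p = 0.0368). Lincpint, a p53-induced RNA, had 0.31 ± 0.15 (adjusted p = 0.139), and Lockd (1190002F15Rik), which lies downstream of the cell-cycle inhibitor gene Cdkn1b, had 0.38 ± 0.15 (adjusted p = 0.0743) while Cdkn1b was lower by a log2 fold change of -0.29 (adjusted p = 0.0143).

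Between Syndecan-2+ and Syndecan-2- cells, 32 of the 110 lincRNAs passed the test, 19 lower and 13 higher. Among the 110, the largest falls exceeded the largest rises: Gm20342, C030034L19Rik, 4833445I07Rik and 5830432E09Rik were lower by more than 1 on the log2 scale, and Gm20467 was the 1 of them higher by that much. Meg3 and H19, left out by name with earlier results known, had log2 fold changes of 2.94 and 1.56, and the first is larger than any of these falls. All tests are limma on log2(CPM + 1) over 13997 genes with Benjamini-Hochberg adjustment at 0.05, and the pseudocount of 1 understates the change of low lincRNAs. Of all genes tested, 20.5% were higher and 9.51% lower, 30.0% in all, against 11.8% and 17.3% of the lincRNAs. The median log2 fold change was 0.07 over the lincRNAs and 0.10 over all genes. The values of the fractions did not overlap in 12 of the 13, 16 of the 19 and 13 of the 78 not called, 37.3% of the lincRNAs against 42.5% of all genes.

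The split depended on the scaling. TMM rescaling moved the median of all genes by -0.10 and called 9 lincRNAs higher and 23 lower, beside 14.4% and 14.0% of all genes, and quantile normalization called 7 and 25, beside 14.3% and 13.4%. All 19 falls remained called under both, and 9 and 7 of the 13 rises. With the replicate number as a block, 19 were higher and 23 lower, beside 24.5% and 11.1% of all genes, and all 32 remained called. Left out in turn, single libraries left 9 to 15 rises and 15 to 19 falls, and 6 rises and 13 falls were called without each of the 9 libraries.

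**Figure D2:**
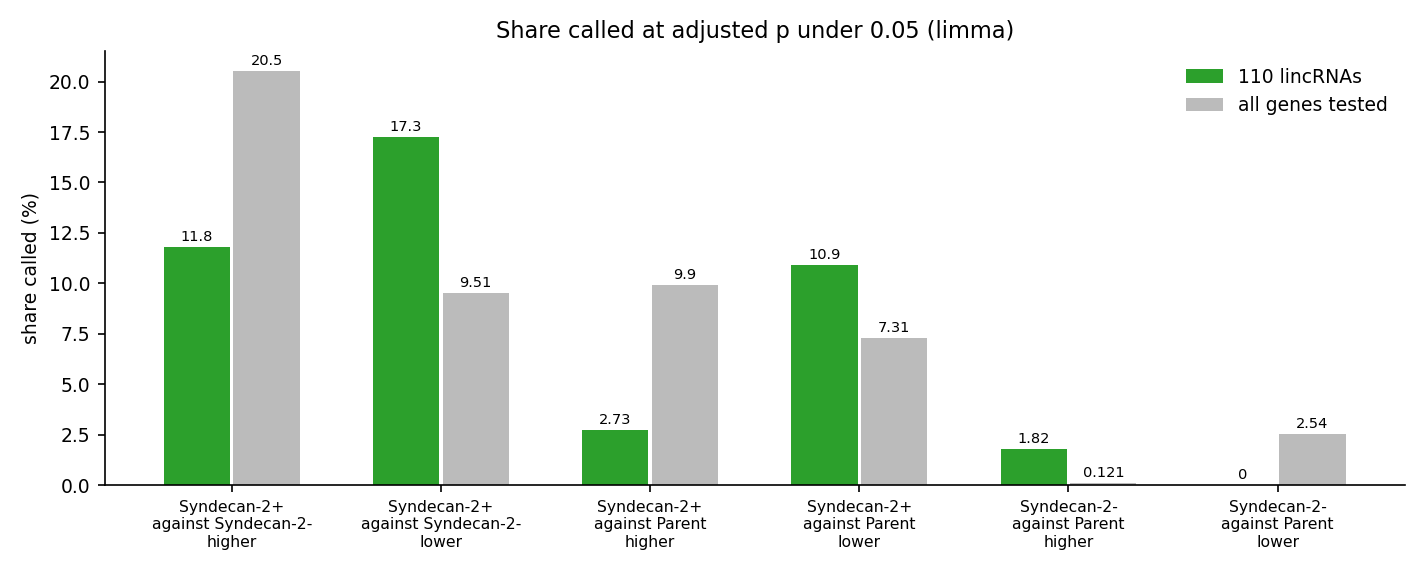
Share of the 110 lincRNAs (green) and of the 13997 genes tested (grey) called higher or lower in each comparison, in percent. Between the sorted fractions 11.8% of lincRNAs were higher and 17.3% lower, against 20.5% and 9.51% of all genes.

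The marker genes of another cell type moved with the same comparison. Of 10 plasma cell markers, 8 were tested, 6 were higher and 1 was lower in Syndecan-2+ cells, and their summed level was 635 to 888 CPM there, 41.0 to 52.6 CPM in Syndecan-2- and 178 to 212 CPM in Parent. The mean level of Igkc was 428, 0.507 and 96.6 CPM in that order, and Igha was listed at 0 in Syndecan-2-. The 1 plasma cell marker that went the other way was Sdc1. Its log2 fold change in Syndecan-2+ against Syndecan-2- cells was -1.88 (adjusted p = 2.23e-08, limma). Of the 6 gate markers, 3 were higher in the Syndecan-2+ fraction, Kit (mean 259 CPM against 164 CPM in Syndecan-2-), Procr (13.2 against 3.03 CPM) and Slamf1 (12.5 against 2.54 CPM). Cd34, which the gate selects against (44.6 against 203 CPM), and Flt3 (19.9 against 279 CPM) were lower, and Ly6a was not called (7.54 against 5.46 CPM). Through Cd34 and Flt3 the sum of the 6 was 340 to 375 CPM in Syndecan-2+, 639 to 681 CPM in Syndecan-2- and 581 to 622 CPM in Parent. In the same order, B cell markers (0 higher, 2 lower) summed to 12.3 to 18.9, 21.1 to 27.3 and 18.6 to 21.5 CPM. These sums hold Ms4a2, a different gene that was matched through a synonym to Ms4a1, which is not listed. Ms4a2 was not called and had means of 8.87, 6.41 and 9.29 CPM, so the sums are not of B cell genes alone. T and NK cell markers (1 higher, 1 lower) summed to 10.4 to 13.1, 12.4 to 14.0 and 13.3 to 17.3 CPM with no value listed for Cd3e, and neutrophil and monocyte markers (1 higher, 3 lower) to 57.5 to 70.3, 90.9 to 92.7 and 78.7 to 89.3 CPM with none listed for S100a9 and Ly6g. Endothelial markers summed to 56.2 to 63.3, 60.3 to 66.4 and 60.6 to 66.6 CPM, with Pecam1 lower (29.6 against 57.0 CPM) and Tek (24.7 against 5.45 CPM), Kdr and Stab2 (1.56 against 0.354 CPM) higher. Late erythroid markers summed to at most 2.97 CPM, and the stromal markers Cxcl12 and Col1a1 to 21.4 CPM in 1 Syndecan-2+ library. The part of these cells in the lincRNA differences was not tested. Sdc2, the gene the sort was made on, followed the labels, with 4.58 ± 0.571 CPM in Syndecan-2+, 1.75 ± 0.290 CPM in Parent and 0.332 ± 0.137 CPM in Syndecan-2- (SD, n = 3), and each pair gave p = 0.1 by an exact two-sided permutation test, the smallest that 3 against 3 allows.

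Gm20342 had the largest fall. It is a transcript of chromosome 1 (chr1:63117118-63126837, plus strand) that starts beside the gene of the chromatin remodeler subunit Ino80d and points away from it. It had 30.7, 36.7 and 29.7 CPM in Parent, 40.1, 47.4 and 32.1 CPM in Syndecan-2- and 13.7, 13.3 and 9.11 CPM in Syndecan-2+. Every Syndecan-2+ library lay below every other library, and the log2 fold change between the fractions was -1.65 ± 0.15 (adjusted p = 1.25e-07). Ino80dos, which spans Gm20342 on the same strand (chr1:63113078-63158290), had 5.66, 7.62 and 5.16 CPM in Syndecan-2- and 3.7, 2.01 and 2.39 CPM in Syndecan-2+, a log2 fold change of -0.96 ± 0.19 (adjusted p = 0.000793). Because these transcripts overlap, they are not independent. Ino80d itself had -0.18 and was not called (adjusted p = 0.128), though it was lower under TMM rescaling (adjusted p = 0.00572) and with the block (adjusted p = 0.0264).

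C030034L19Rik fell almost as far. It lies on the plus strand of chromosome 3 (chr3:9403064-9437233), and 2525 of its 5786 exonic bases lie on exons of the zinc finger gene Zfp704, on the other strand. It had 14.7, 14.2 and 12.8 CPM in Parent, 15.5, 14.4 and 15.5 CPM in Syndecan-2- and 5.67, 5.19 and 2.77 CPM in Syndecan-2+. The Parent and Syndecan-2- libraries lay close together and all Syndecan-2+ libraries far below them, at -1.58 ± 0.17 (adjusted p = 1.37e-06). Zfp704 was lower as well, by less (-0.42, adjusted p = 0.00035).

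LincRNAs that hold miRNA hairpins were among the falls. 4833445I07Rik, which holds miR-191 and miR-425 (sequences above), had 4.13, 7.41 and 5.6 CPM in Parent, 6.35, 7.47 and 5.73 CPM in Syndecan-2- and 2, 2.09 and 1.37 CPM in Syndecan-2+. The Syndecan-2+ libraries were below all others, at -1.42 ± 0.19 (adjusted p = 1.95e-05). 4833445I07Rik reached the level of the choice in no Syndecan-2+ library, so this test is not independent of the choice. It starts 99 bases from Ndufaf3, a mitochondrial assembly factor gene on the other strand, which had -0.02 (adjusted p = 0.939). Mir17hg, the host of the miR-17-92 cluster (chr14:115042879-115046727), had 6.19, 5.84 and 6.1 CPM in Syndecan-2- and 3.18, 3.88 and 5.11 CPM in Syndecan-2+, at -0.50 ± 0.16 (adjusted p = 0.0288). The fractions did not overlap, but the call was lost without each of 5 libraries, Syndecan-2+ replicates 1 and 2 and all 3 of Syndecan-2- (adjusted p from 0.0551 to 0.143). Of the other 4 lincRNAs with a miRNA hairpin, Ftx, Snhg20, 6720427I07Rik and Gm37233, none was called, and 6720427I07Rik, which holds let-7d, had 0.27 (adjusted p = 0.34). Among miRNA processing genes, Ago1, which binds mature miRNAs, was higher at 87.2 ± 7.04 against 66.3 ± 4.49 CPM (SD, n = 3, log2 fold change 0.39, adjusted p = 0.000862), and the other 7 of 8 were not called.

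Several falls lay across a coding gene that fell too. Gm26778 (chr14:102978220-102982528) has all of its 3805 exonic bases on exons of Kctd12, a gene of a potassium channel tetramerization domain protein on the other strand. It had 23.8, 23.5 and 23 CPM in Syndecan-2- and 10.8, 14.6 and 9.13 CPM in Syndecan-2+, at -0.99 ± 0.13 (adjusted p = 1.47e-05), while Kctd12 went from 44.0 ± 2.06 to 26.2 ± 1.82 CPM (-0.73, adjusted p = 5.52e-06). 5830432E09Rik, across the receptor phosphatase gene Ptpre (-0.44, adjusted p = 0.000383), had 21.5, 18.4 and 15.4 CPM in Syndecan-2- and 10, 7.22 and 8.03 CPM in Syndecan-2+, at -1.04 ± 0.13 (adjusted p = 9.49e-06). How the authors' counting treated strand is not given in the sources used here, so reads of such a lincRNA and of its partner cannot be told apart where they share bases. Gm26742 across Zfp608 (-0.92 against -0.30 for the coding gene), Gm26546 across Gnptab (-0.78 against -0.66), Gm17552 across Carns1 (-0.66 against -0.47), Gm26885 across Pim1 (-0.70 against -0.53) and Gm26772 across Zmiz1 (-0.61 against -0.79) showed the same pair of calls. Exonic bases on coding exons of the other strand were 209 of 4527 in 5830432E09Rik, 79 of 3340 in Gm26742 and 158 of 4276 in Gm26546. They were 1825 of 3877 in Gm17552, 121 of 888 in Gm26885 and 0 of 3429 in Gm26772. Gm16194, with Rab44 as nearest gene (-0.90 against -0.98), has 2 of its 4 transcripts in GENCODE M21, which lacks its gene identifier. All 487 exonic bases of these 2 lie on coding exons of their own strand. Their own exons were not left out of that comparison, so overlap with another gene is not shown. These 2, at most 362 bases long, stood at 2.03 and 0.134 CPM per kilobase in Syndecan-2- and Syndecan-2+. The symbol as a whole had 7.55 and 3.61 CPM. Gm38399 (chr1:135606447-135688105) overlaps the start of Nav1 (chr1:135434580-135607295) on the same strand, minus, with 134 of its 1645 exonic bases on coding exons. RefSeq counts it to Nav1, and both were lower (-0.80 against -0.93).

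The remaining falls had no coding gene falling beside them, apart from AI504432, whose neighbour, the potassium channel gene Kcna3, was lower by a log2 fold change of -0.53. Mirt1 (5830416P10Rik) had 10, 6.76 and 8.1 CPM in Syndecan-2- and 3.02, 3.2 and 5.05 CPM in Syndecan-2+, at -0.97 ± 0.20 (adjusted p = 0.001). The libraries of the fractions did not overlap, and its nearest coding gene, Smndc1, lies 50639 bases away and had -0.09 (adjusted p = 0.614). Gm5914, which overlaps Ctcf, AI504432, Gm26857, which overlaps Lyn, and Gdap10 had log2 fold changes of -0.74, -0.48, -0.58 and -0.36. Of the 510 exonic bases of Gm5914, 114 lie on coding exons of its own strand and 370 on those of the other strand. In Gm26857 these were 0 and 248 of 3347. Gdap10 overlaps a coding gene on its own strand, with 0 of its 5003 exonic bases on coding exons. The call was lost without 1 library for Gm5914 (Syndecan-2+ replicate 2, adjusted p = 0.0511). For Gm26885 it was lost without Syndecan-2+ replicate 2 or Syndecan-2- replicate 1 or 3 (adjusted p up to 0.101). For Gm26772 it was lost without Parent replicate 3, Syndecan-2+ replicate 2 or 3 or Syndecan-2- replicate 1 or 2 (up to 0.202). For Gm26857 it was lost without replicate 1 or 3 of Syndecan-2+ or 1 or 2 of Syndecan-2- (up to 0.139), and for Gdap10 without replicate 2 or 3 of Syndecan-2+ or any 1 Syndecan-2- library (up to 0.159). Under TMM rescaling Lyn was lower too (adjusted p = 0.0119).

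**Figure D3:**
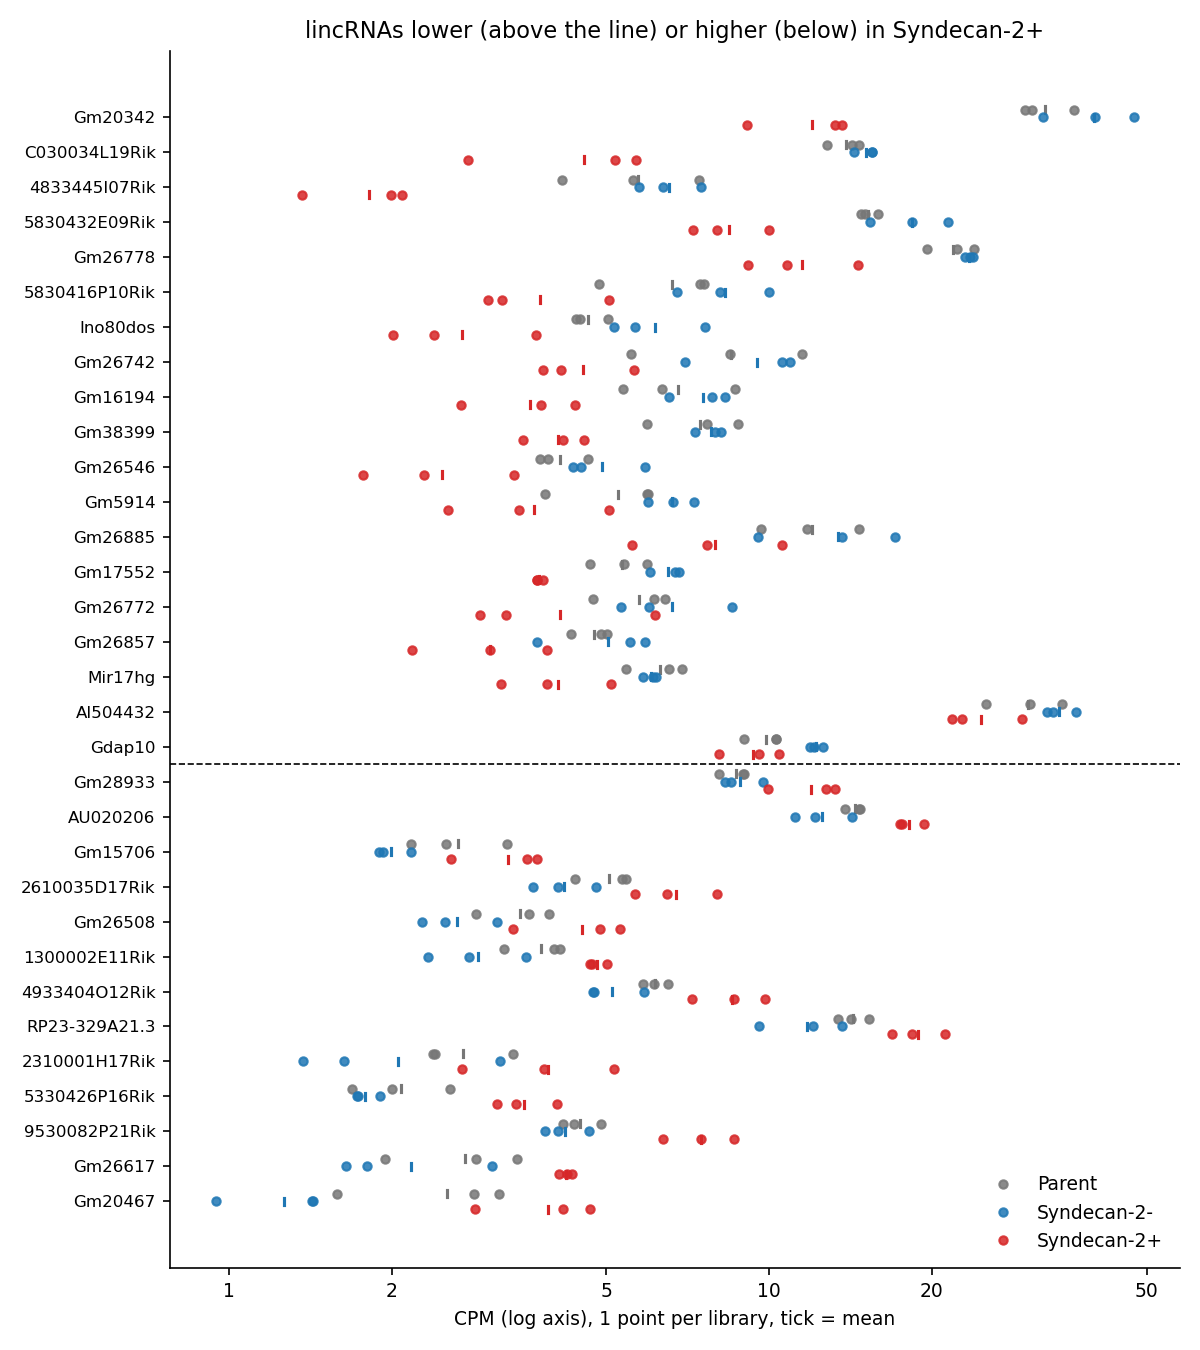
CPM (log axis) of the 32 lincRNAs called between the sorted fractions, 1 point per library with the population mean as a tick. The 19 above the dashed line were lower and the 13 below it higher in Syndecan-2+; Gm20342 and C030034L19Rik stand apart with Syndecan-2+ libraries at 9.11 to 13.7 and 2.77 to 5.67 CPM.

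Among the rises, Gm20467 moved furthest and moved with its neighbour. It is transcribed away from Nkx2-3, a homeobox transcription factor gene, and the RefSeq windows of both starts overlap (above). It had 2.84, 1.59 and 3.16 CPM in Parent, 1.43, 1.42 and 0.947 CPM in Syndecan-2- and 4.15, 4.66 and 2.86 CPM in Syndecan-2+. The fractions did not overlap and Parent lay between them, at 1.10 ± 0.22 (adjusted p = 0.000842). Gm20467 reached 3 CPM in no Syndecan-2- library, so this test is not independent of the choice. Nkx2-3 went from 11.5 ± 0.717 CPM in Syndecan-2- to 31.5 ± 4.57 CPM in Syndecan-2+ (SD, n = 3, log2 fold change 1.37, adjusted p = 7.21e-08).

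RP23-329A21.3, named Gm19590 in GENCODE, lies 97182 bases from Kdr, the gene of a receptor for vascular endothelial growth factor (VEGFR2). It had 12.1, 13.7 and 9.57 CPM in Syndecan-2- and 18.4, 16.9 and 21.2 CPM in Syndecan-2+, at 0.64 ± 0.13 (adjusted p = 0.000834), and Kdr rose from 0.403 ± 0.339 to 3.27 ± 0.518 CPM (1.62, adjusted p = 1.11e-05). 9530082P21Rik (chr17:23749236-23754065) had 4.65, 4.06 and 3.84 CPM in Syndecan-2- and 7.49, 6.36 and 8.62 CPM in Syndecan-2+, at 0.71 ± 0.15 (adjusted p = 0.00185), beside Flywch1 (0.59). 2310001H17Rik beside Clec2d, a gene of a lectin-like ligand of natural killer cells, and Gm28933 beside the forkhead factor gene Foxn3 rose by 0.69 and 0.39, with 0.58 and 0.41 for the neighbours. Neither was called under TMM rescaling (adjusted p = 0.0589 and 0.112) or quantile normalization (adjusted p = 0.121 and 0.19). The first call was lost without replicate 2 or 3 of either fraction (adjusted p from 0.0702 to 0.162), the second without Syndecan-2+ replicate 1 or 2 or Syndecan-2- replicate 2 or 3 (adjusted p from 0.0866 to 0.137).

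Dubr (5330426P16Rik), a lincRNA linked in mouse to muscle cell differentiation, had 2, 1.69 and 2.56 CPM in Parent, 1.91, 1.73 and 1.73 CPM in Syndecan-2- and 4.05, 3.4 and 3.13 CPM in Syndecan-2+. Its log2 fold change was 0.69, in the direction that its choice required, and its neighbour Bbx had -0.12, not called but lower under TMM rescaling (adjusted p = 0.0222). AU020206 had 11.2, 12.1 and 14.3 CPM in Syndecan-2- and 19.3, 17.5 and 17.6 CPM in Syndecan-2+, at 0.51 ± 0.11 (adjusted p = 0.00157). 4933404O12Rik, Gm26617, 1300002E11Rik and 2610035D17Rik rose by 0.64, 0.74, 0.59 and 0.57, and no coding neighbour of theirs was called, though Ift22, next to 4933404O12Rik, was lower under TMM rescaling (adjusted p = 0.0432). Quantile normalization called neither 1300002E11Rik nor 2610035D17Rik (adjusted p = 0.0671 and 0.0731). The call was lost for Gm26617 and 1300002E11Rik without Syndecan-2- replicate 2 (adjusted p = 0.0505 and 0.0662), and for 2610035D17Rik without Syndecan-2+ replicate 3 or Syndecan-2- replicate 1 (adjusted p = 0.0746 and 0.0509).

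A pair of rises had less support. Gm15706 had 2.17, 1.93 and 1.89 CPM in Syndecan-2- and 3.72, 2.57 and 3.57 CPM in Syndecan-2+, at 0.51 ± 0.19 (adjusted p = 0.0481), a call not made under TMM rescaling (adjusted p = 0.0924) or quantile normalization (adjusted p = 0.195), without Parent replicate 1, without Syndecan-2+ replicate 1 or 3 or without any 1 of the Syndecan-2- libraries (adjusted p from 0.0559 to 0.167). It reached the level of the choice in no Syndecan-2- library, so its test is not independent of the choice. Gm26508 had 2.28, 3.14 and 2.51 CPM in Syndecan-2- and 4.87, 5.29 and 3.36 CPM in Syndecan-2+, at 0.59 ± 0.19 (adjusted p = 0.0236), with no overlap between the fractions. TMM rescaling and quantile normalization did not call it (adjusted p = 0.0624 and 0.133), nor did fits without Syndecan-2+ replicate 1 or 2 or Syndecan-2- replicate 1 or 3 (adjusted p from 0.065 to 0.103).

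Over all 32 called lincRNAs, the nearest tested coding gene was called in the same direction for 16, 11 of the 19 falls and 5 of the 13 rises, was called in the opposite direction for 1 and was not called for 15. Of the 78 lincRNAs not called, 17 had a neighbour that was higher and 10 one that was lower. By position, 57 lincRNAs lay apart from any tested coding gene (10 higher, 4 lower), 14 were divergent from one within 5000 bases (2 higher, 2 lower), 36 overlapped one on the other strand (1 higher, 11 lower) and 3 on the same strand (0 higher, 2 lower). The 71 lincRNAs whose span overlaps no tested coding gene included 12 that were higher and 6 that were lower. Of these 71, 6 still have exonic bases on annotated coding exons, among them the called Gm16194 (in 2 of its 4 transcripts, above), 9530082P21Rik (1071 of 4270) and 1300002E11Rik (226 of 3965). A lincRNA did not have to follow a strongly changed nearest coding gene: Snhg6 had -0.04, and Sgk3, 41114 bases away, had -0.99. Snhg20 had 0.11, and Sec14l1, 36213 bases away, had 0.92. AI480526 had 0.38, and Rhof, 1031 bases away, had 1.68. These pairs are values only, and the pairing was not tested.

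**Figure D4:**
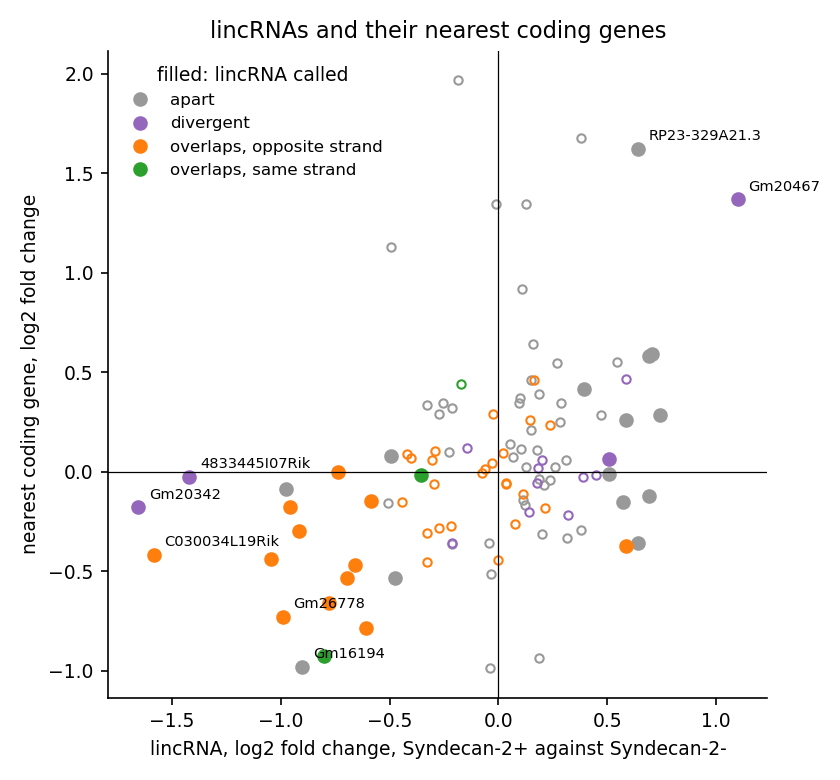
Log2 fold change of each of the 110 lincRNAs (x axis) and of its nearest tested coding gene (y axis) in Syndecan-2+ against Syndecan-2- cells, coloured by relative position, filled where the lincRNA was called. Gm26778 lies at -0.99 with -0.73 for Kctd12 and Gm20467 at 1.10 with 1.37 for Nkx2-3.

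Syndecan-2+ cells also differed from the whole gate. Against Parent, 12 lincRNAs were lower and 3 higher, 10.9% and 2.73% of the 110, where 7.31% and 9.90% of all genes were (17.2% in either direction). The libraries did not overlap in 28 lincRNAs, 25.5%, and in 32.0% of all genes. The median log2 fold change was -0.04 over the lincRNAs and 0.05 over all genes, and both comparisons use the same Syndecan-2+ libraries. The falls were led by C030034L19Rik (-1.47 ± 0.17, adjusted p = 7.95e-06), Gm20342 (-1.37 ± 0.15, adjusted p = 3.11e-06), 4833445I07Rik (-1.23 ± 0.19, adjusted p = 0.000178), Gm26778 (-0.89 ± 0.13, adjusted p = 9.61e-05) and 5830432E09Rik (-0.80 ± 0.13, adjusted p = 0.000326). Here too the test of 4833445I07Rik is not independent of the choice. The rises were 9530082P21Rik (0.63 ± 0.15, adjusted p = 0.00795), 5330426P16Rik (0.56 ± 0.18, adjusted p = 0.0412, chosen through these libraries) and Gm28933 (0.42 ± 0.13, adjusted p = 0.036). With the replicate number as a block 7 were higher, beside 13.2% of all genes. TMM rescaling left 1 higher and 15 lower, beside 8.57% and 8.86% of all genes, and quantile normalization the same counts beside 8.72% and 8.64%. The call of 9530082P21Rik was lost without Syndecan-2+ replicate 3 (adjusted p = 0.0522), that of Gm28933 without any 1 Parent library or Syndecan-2+ replicate 1 or 2 (up to 0.157), and that of 5330426P16Rik without Parent replicate 1 or 2 or any 1 Syndecan-2+ library (up to 0.167). The rises numbered 1 without Parent replicate 1, Parent replicate 2 or Syndecan-2+ replicate 3 and 5 without Syndecan-2- replicate 3, and the falls numbered 7 without Parent replicate 2.

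Syndecan-2- cells differed little from Parent. Gm28901 (chr1:97024516-97025565) had 37.2, 32.7 and 37.3 CPM in Parent and 44.7, 49.6 and 53.2 CPM in Syndecan-2-, with no overlap, at 0.45 ± 0.08 (adjusted p = 0.00564). Gm26951 had 2.98, 2.99 and 2.62 CPM in Parent and 5.8, 4.06 and 7.66 CPM in Syndecan-2-, at 0.79 ± 0.20 (adjusted p = 0.0473). It reached the 3 CPM of the choice in no Parent library, so this test is not independent of the choice. In both lincRNAs the Syndecan-2+ mean lay between, at 42.2 ± 1.84 and 3.81 ± 0.996 CPM. These 2 are 1.82% of the lincRNAs, where 0.121% of all genes were higher, and the Gm26951 call was lost without Parent replicate 1, 2 or 3, Syndecan-2- replicate 1 or 3 or Syndecan-2+ replicate 1 (adjusted p from 0.059 to 0.227). By limma 0 lincRNAs were lower, where 2.54% of all genes were (2.66% in either direction), 4 had an unadjusted p under 0.05 in that direction, and 1 (5031425E22Rik) was called with the block. In 30 of the 32 lincRNAs called between the fractions, the Parent mean lay between the means of the fractions, and in 69 of all 110.

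In annotation the 110 were a mixed group. GENCODE M21 holds the gene identifier of 105, of which 84 are still typed lincRNA, 13 antisense and 8 another type. RefSeq has a gene for 68, of which 58 are noncoding RNAs, 7 coding genes and 3 pseudogenes. The 7 include 1810058I24Rik, which encodes a mitochondrial micropeptide, and Gm38399, counted there to Nav1. Transcript lengths were found for 106, and the longest transcript ran from 158 to 20771 bases with a median of 2498. Of these, 11 have 1 exon, 46 have 2 and 49 have 3 or more. In 40 lincRNAs some exonic bases lie on coding exons of either strand, among them 15 of the 32 called, and in 9 most exonic bases do, 4 of them called. Both counts include Gm16194, through 2 of its 4 transcripts (above).

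The protein partners of noncoding RNAs were mostly not called. Of 68 genes in 7 lists, all were tested and 4 were called, where 30.0% of all genes were: Ago1 (above) and Ciz1, a nuclear matrix protein that binds Xist, at 0.23 (adjusted p = 0.0151), were higher, and Smg1, a kinase of nonsense-mediated decay, at -0.31 (adjusted p = 0.00135), and Lbr, an inner nuclear membrane protein, at -0.25 (adjusted p = 0.00737), were lower. None of 13 snoRNP genes, 11 paraspeckle protein genes, 9 nuclear speckle protein genes or 9 nuclear RNA decay genes was called by limma. The medians of the 7 lists were 0.01 to 0.13, against 0.10 over all genes. TMM rescaling called 11 of the 68, beside 14.4% of all genes higher and 14.0% lower, and the block 8, beside 24.5% and 11.1%. Against Parent, Ago1 was higher and Smg1 and Lbr lower in Syndecan-2+, and 0 were called in Syndecan-2-.

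A few lincRNAs followed the replicate number more than the population. Same-numbered libraries deviate together, and replicate 2 was compared with replicates 1 and 3 in limma with the population in the model, a comparison chosen after the values were seen. It called 3 lincRNAs higher and 2 lower, and 0.736% and 0.943% of all genes. Gm26802, which lies downstream of the immediate early gene Fosb on its strand, had 10.8, 9.86 and 10.8 CPM in replicate 2 of Parent, Syndecan-2- and Syndecan-2+, and 4.91, 4.82 and 6.58 CPM in replicate 1 and 1.91, 2.89 and 2.75 CPM in replicate 3. The log2 difference was 1.28 ± 0.14 (adjusted p = 4.06e-06), and Fosb was higher by 0.34. Gm26825 had 215, 227 and 205 CPM in replicate 2 and 121 to 170 CPM in the other 6 libraries (0.59 ± 0.05, adjusted p = 3.37e-07). Neat1 was higher as well (0.68 ± 0.09, adjusted p = 9.48e-05), with 302, 219 and 285 CPM in replicate 2, though Syndecan-2- replicate 1 reached 233 CPM. Gm26885 (-0.55) and Cep83os (-0.50) were lower, and so was Pim1, the kinase gene that Gm26885 overlaps (-0.46). Gm26825 had -0.27 ± 0.18 between the fractions (adjusted p = 0.281), and was called lower in Syndecan-2+ with the block (adjusted p = 0.00125). What the replicate number stands for is not given in the sources used here.

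**Figure D5:**
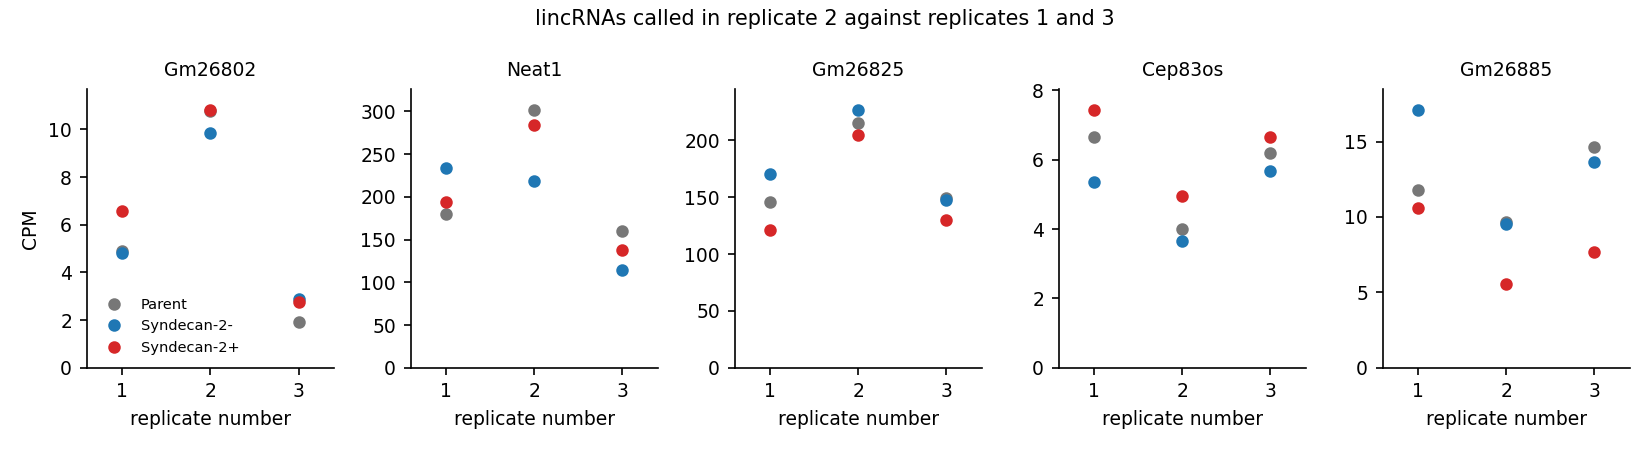
CPM of the 5 lincRNAs called in replicate 2 against replicates 1 and 3, by replicate number, 1 point per library and population. In Gm26802 and Gm26825 all 3 libraries of replicate 2 lie above the other 6.

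Meg3 and H19, kept out of the count, had 9.66 ± 1.26 and 3.43 ± 0.988 CPM in Syndecan-2+, 3.05 ± 1.56 and 0.675 ± 0.0869 CPM in Parent and 0.384 ± 0.115 and 0.531 ± 0.525 CPM in Syndecan-2- (SD, n = 3).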

How the data were processed

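The members and lists were chosen with earlier results of these data known. RNA of sorted cells was measured in 9 libraries (RNeasy Micro extraction, per the labels' protocols). Deposited values are CPM, 1 line per Ensembl transcript, per the file headers, and the submitters' processing notes name STAR, Bowtie2 and GRCm38 without roles. Which program counted, how it treated strand and what CPM are relative to: not given in the sources used here. Transcripts without reads stand at 0.0001, which was subtracted, and values were summed per symbol. Steps between values did not give whole reads for all genes, so no count test was run. The listed CPM sum to 51.5 to 54.5% of the full CPM scale in a library.

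Genes with 1 CPM in at least 3 libraries (13997, all 110 lincRNAs among them) were tested with limma 3.58.1 in R 4.3.3 (1 fit of 9 libraries, eBayes with trend) on log2(CPM + 1). Self-tested on simulated data. Python 3.11.15, pandas 2.3.3, scipy 1.17.1 and matplotlib 3.10.9 made tables and figures, and TMM factors were computed from the method's published formula. Some neighbouring genes are not reported here. The nearest coding gene has the smallest gap to the lincRNA among tested coding genes. Exons and lengths come from GENCODE M21 and promoters and miRNAs from RefSeq, both on GRCm38.

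Replicate numbers pair the samples: deviations from population means correlated at 0.117 to 0.259 between same-numbered libraries (9 pairs) and at -0.206 to 0.00483 between others (18 pairs). A block is therefore printed where it changes a call.

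Named are the 5 highest lincRNAs, the 10 largest rises and falls between the fractions among called lincRNAs without overlap, up to 5 each against Parent, members of role lists and those next to the limit. Other called lincRNAs, the partner genes called and the pairs of lincRNA and neighbour were named after their values were seen. Alternatives were pseudocounts of 0.1 and 5, no filter or 10 CPM, TMM, quantile and sum rescaling, eBayes without trend or robust, 6 libraries alone, the block, each library left out, a threshold of 0.1, and stricter member rules. Those without overlapping lincRNAs, for replicate 2 and without the ribosomal RNA locus were chosen after seeing the data.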

Additional observations from a re-analysis of the deposited data

How the results depend on the processing

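No called value changed sign in any alternative that was run. Between Syndecan-2+ and Syndecan-2- cells, 13 lincRNAs were higher and 19 lower. With a minimum of 10 CPM for the test, or for the lincRNAs, these were 2 and 8, since 23 lincRNAs were left. Quantile normalization gave 7 higher, a threshold of 0.1 gave 20 higher, and the 71 lincRNAs whose span overlaps no tested coding gene gave 6 lower. Against Parent, Syndecan-2+ had 3 higher and 12 lower. Without a filter, with a minimum of 10 CPM, TMM or quantile normalization 1 was higher, with the replicate block 7, with a threshold of 0.1 8, among lincRNAs at 10 CPM 0, and without each library 1 to 5. The lower count was 5 with either 10 CPM rule, 5 without overlapping lincRNAs, and 7 to 13 without each library. Syndecan-2- against Parent had 2 higher. This was 1 with a pseudocount of 5, no filter or either 10 CPM rule, 0 with eBayes without trend and 1 to 2 without each library. The lower count of 0 became 1 with the block (5031425E22Rik) and 1 at a threshold of 0.1. Coding neighbours called with their lincRNA numbered 16, or 6 with a minimum of 10 CPM and 25 with the block. Partner genes called numbered 4, or 11 with TMM and 8 with the block. Beyond the lincRNAs and genes named in the report, Gm17586 (0.58) was called higher between the fractions with the block (adjusted p = 0.0298, limma), as were B230354K17Rik, Gm28187 and Gm28875, and Gm17275, Gm26951 and Gm28901 were called lower. Against Parent the block added AU020206, B230354K17Rik, Gm28901 and RP23-329A21.3 as higher and AI504432, Gm17275, Gm26825, Gm26857 and Gm26885 as lower in Syndecan-2+. It changed no other call of a lincRNA. Causes of these shifts were not tested, apart from the smaller number of lincRNAs under the 10 CPM rules. At 3 reads or 0.146 to 0.194 CPM the depth allows no statement on rarer lincRNAs.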
